A study of Mus musculus with 9 samples.

Results

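Broad Hdac1 domains are stretches of the mouse genome over which the histone deacetylase Hdac1 gave an unusually wide ChIP-seq peak. Domains were selected on Hdac1 peak width: overlapping peaks of the 3 Hdac1 lists were joined (1 bp of overlap sufficed), and a joined region counted as a domain when at least 1 single Hdac1 peak in it measured 2500 bp or more. This gave 1026 domains among 12575 merged Hdac1 regions (8.16%), and the 11549 remaining regions serve below as the comparison. The cells were haemogenic endothelium, the endothelium from which the earliest blood cells emerge, made in culture without treatment from embryonic stem cells of 3 C57BL/6 lines. The lines are labelled Bry (passage 16 to 19), Hd1_loxlox and Hd2lox (passage 25 to 30 each), and the labels give no genotype beyond these names. Each line gave 1 Hdac1 library (Diagenode antibody), 1 Hdac2 library (abcam antibody) and 1 input library, and the inputs were not analysed here. The labels do not say whether the lines were cultured and processed in separate experiments. The p-values therefore reflect only how far these libraries differed, and that may be technical. Between Bry and the other lines, passage cannot be told apart from line. The lists hold peak positions on mm10 without counts or heights, so depth is unknown and the labelled cell type could not be checked against its markers. The Hdac2 list of Hd1_loxlox stood apart from the rest. Of its 5161 peaks 75 (1.45%) lay in domains, against 939 of 9279 (10.1%) in Bry and 495 of 9082 (5.45%) in Hd2lox. In other Hdac1 regions lay a further 313 peaks of Hd1_loxlox, 6603 of Bry and 2818 of Hd2lox. The Hd1_loxlox list thus lay apart from Hdac1 regions as a whole and not from domains alone. The comparisons of Hdac2 between domains and other regions are also given without it. Since widths chose the domains, Hdac1 widths are described below and not tested, except in libraries that the choice left out.

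Hdac1 removes acetyl groups from histone tails and works as the catalytic subunit of the Sin3, NuRD and CoREST complexes, often together with its close relative Hdac2. It has no sequence-specific DNA binding of its own and reaches chromatin through transcription factors and complex subunits. Deacetylases are found at active promoters as well as at repressed ones, where acetylation is turned over continually, and the width of a ChIP-seq peak says over what length the signal stood above the caller's background, not how much protein was bound.

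Sequences from RefSeq (GRCm38.p6) show what lies in the domains. The first set is the 250 bases upstream of a start site in 5 of the 20 domains that were widest in the narrowest of the 3 libraries, printed in the direction of transcription. They were chosen after their letters were seen, to span the range from GC-rich promoters with many copies of GGGCGG, the core of the Sp/Klf binding site, to a promoter without any. Capitals mark GGGCGG and CCAAT, the NF-Y core, on either strand, so that a copy on the opposite strand reads CCGCCC or ATTGG.
Yy1, chr12:108793047-108793296 (+): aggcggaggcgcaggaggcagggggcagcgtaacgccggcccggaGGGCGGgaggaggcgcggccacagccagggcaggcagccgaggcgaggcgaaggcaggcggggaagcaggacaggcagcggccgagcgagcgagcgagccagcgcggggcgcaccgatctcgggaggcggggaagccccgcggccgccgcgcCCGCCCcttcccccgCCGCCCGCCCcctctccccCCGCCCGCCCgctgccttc
Igf1r, chr7:67952007-67952256 (+): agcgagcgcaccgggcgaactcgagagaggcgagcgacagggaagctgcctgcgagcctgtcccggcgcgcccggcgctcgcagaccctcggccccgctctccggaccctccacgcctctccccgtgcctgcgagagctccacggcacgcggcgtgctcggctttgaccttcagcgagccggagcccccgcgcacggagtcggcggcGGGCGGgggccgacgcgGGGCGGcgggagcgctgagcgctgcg
Ing1, chr8:11556207-11556456 (+): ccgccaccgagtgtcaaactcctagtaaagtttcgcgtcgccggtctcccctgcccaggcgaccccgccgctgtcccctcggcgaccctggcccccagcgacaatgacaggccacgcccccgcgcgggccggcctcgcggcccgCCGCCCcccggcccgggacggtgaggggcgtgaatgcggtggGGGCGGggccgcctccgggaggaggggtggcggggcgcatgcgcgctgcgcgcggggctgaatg
Irs2, chr8:11008930-11009179 (-): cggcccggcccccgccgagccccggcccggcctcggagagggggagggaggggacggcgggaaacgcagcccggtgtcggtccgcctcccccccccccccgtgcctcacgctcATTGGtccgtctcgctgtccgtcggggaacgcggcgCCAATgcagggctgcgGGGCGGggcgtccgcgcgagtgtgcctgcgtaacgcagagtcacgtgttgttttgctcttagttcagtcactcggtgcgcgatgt
Vasp, chr7:19271855-19272104 (-): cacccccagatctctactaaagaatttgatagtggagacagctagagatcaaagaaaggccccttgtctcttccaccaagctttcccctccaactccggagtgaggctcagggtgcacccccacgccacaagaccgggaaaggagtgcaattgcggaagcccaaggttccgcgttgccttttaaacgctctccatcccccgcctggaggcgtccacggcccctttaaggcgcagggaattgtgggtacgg
The Yy1 sequence had a GC content of 81.2% with 6 copies of GGGCGG, Igf1r and Ing1 each had 77.6% with 2 copies, and Irs2 had 72.8% with 1 copy and 2 copies of CCAAT. The Vasp sequence had a GC content of 57.2% and neither motif, so a broad domain was not limited to GC-rich promoters of this kind.

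A second set shows mature microRNAs encoded inside domains, with the seed (bases 2 to 8) in capitals. Of 1005 hairpins in the RefSeq table, 15 lay wholly inside 13 domains and 57 inside other Hdac1 regions. The 3 shown are the let-7 family member, whose family restrains Lin28a and growth genes, the neural and glial miR-219, and the microRNA encoded in the Gse1 domain described below.
mmu-let-7i-5p, chr10:122985698-122985719 (-): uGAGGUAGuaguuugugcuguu
mmu-miR-219a-5p, chr17:34025052-34025072 (-): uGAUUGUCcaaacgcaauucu
mmu-miR-7687-5p, chr8:120538696-120538720 (+): aGGCGGGGaaccugaggcgcaggcu
No seed was shared among these 3. The domain over Mirlet7i had Hdac1 peaks of 2843 bp in Bry, 1936 bp in Hd1_loxlox and 1872 bp in Hd2lox. It was thus broad in 1 list and narrower in the others, and the widest Hdac2 peak that touched it in Bry measured 1813 bp. The domain over Mir219a-1 and Mir219c, which are read from opposite strands of the same stretch, had Hdac1 peaks of 1143, 2504 and 1523 bp in the same order and also held an end of Ring1, a Polycomb ubiquitin ligase. Mir3960 and Mir2861 shared a domain with peaks of 2148, 2535 and 1396 bp.

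Breadth was shared only in part between the lines. Of the 1026 domains, 753 (73.4%) had a broad Hdac1 peak in 1 list, 206 (20.1%) in 2 lists and 67 (6.53%) in all 3, although 645 had some Hdac1 peak in all 3 lists. Hd1_loxlox had 533 broad peaks (7.12% of its 7490 Hdac1 peaks), Bry 421 (5.49% of 7671) and Hd2lox 414 (5.51% of 7519). In Bry, 420 domains held a broad peak, 408 a narrower one and 198 none. The corresponding numbers were 532, 354 and 140 in Hd1_loxlox and 414, 429 and 183 in Hd2lox. Hd1_loxlox was therefore the line with the most broad peaks. It also had the fewest empty domains, which the rule fixes in part, since a broad peak of a line makes a domain that is not empty there. Domain length ran from 2501 to 10123 bp with a median of 2984 bp, 26 domains exceeded 5000 bp, and together they covered 3.27 Mb.

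Bry and Hd1_loxlox resembled each other more than either resembled Hd2lox. Of the broad Bry peaks, 52.0% overlapped a broad peak in Hd1_loxlox and 19.5% overlapped one in Hd2lox. Of the broad Hd1_loxlox peaks, 41.1% did so in Bry and 19.9% in Hd2lox. Broad Hd2lox peaks overlapped a broad peak in 19.8% of cases in Bry and 25.6% in Hd1_loxlox. Narrower peaks overlapped a broad peak of another list in 2.40 to 4.48% of cases. Domains found in a single Hdac1 list were mostly from Hd2lox, with 119 of them, against 16 from Hd1_loxlox and 5 from Bry. Of those 119, 33.6% held an end of a protein-coding gene, and 15.1% had an Hdac2 peak of the same line over the midpoint. The corresponding shares were 43.75 and 6.25% for the 16 from Hd1_loxlox, and 60 and 80% for the 5 from Bry.

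Each line was then left out of the choice in turn, so that its Hdac1 widths could be compared between regions called broad in the other lines and the rest. The widest Bry peak per region had a median width of 2176 bp in regions with a broad peak in Hd1_loxlox or Hd2lox and 1411 bp in the other regions. Only regions that a peak of the line left out touched were counted. Region length was not adjusted for, and the chosen regions are longer by the rule. For Hd1_loxlox the medians were 2262.5 and 1489 bp, and for Hd2lox 1867 and 1472 bp. The widest peaks of the line left out had the larger median in the chosen regions in 3 of 3 lines, and the 2 sets of medians did not overlap. The mean difference was 644.5 ± 216 bp (SD, n = 3 lines; exact two-sided sign-flip permutation p = 0.25, the smallest that 3 lines allow; Benjamini-Hochberg adjusted p = 0.25 over 4 tests), so the design could not reach 0.05. The 3 differences share libraries and are not independent. With only a pair of lines in use, the mean difference was 399.25 bp without Hd1_loxlox, 485.75 bp without Bry and 991.5 bp without Hd2lox. A peak in the line left out was itself broad in 27.9% of the chosen regions in Bry, 34.3% in Hd1_loxlox and 16.6% in Hd2lox, against 1.97, 2.72 and 2.02% of the other regions.

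**Figure D1:**
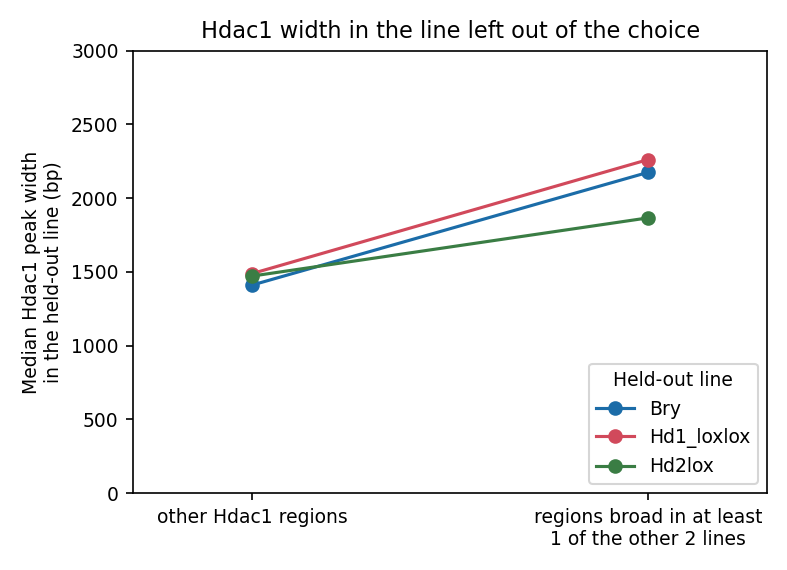
Median over regions of the width in bp of the widest Hdac1 peak of 1 line (y axis, from 0), in regions called broad from the other lines and in all other regions. Regions without a peak of that line are left out, and each line joins the medians of 1 library, with no error bars. All 3 lines go up, Hd2lox least, from 1472 to 1867 bp.

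The domains that were widest in the narrowest of the 3 libraries are described by gene, starting with those of signalling and the cytoskeleton. Smad7, which encodes the inhibitory Smad of TGF-beta signalling, had Hdac1 peaks of 5406 bp in Bry, 6787 bp in Hd1_loxlox and 5378 bp in Hd2lox. Its smallest width, 5378 bp, exceeded that of the next gene, Irf2bp2 (3734 bp), by more than any later step in the order. Hdac2 peaks there measured 3969 bp in Bry and 1425 bp in Hd2lox, and Hd1_loxlox had none. Igf1r, the receptor for insulin-like growth factor 1 whose promoter is printed above, had Hdac1 peaks of 3660, 4066 and 4243 bp in the same order of lines. Its adaptor Irs2, insulin receptor substrate 2, had 3484, 3203 and 4238 bp, and Sh2b3, an adaptor that restrains cytokine receptors, had 4367, 3698 and 2963 bp. Igf1r and Irs2 were broadest in Hd2lox, whereas Sh2b3 was broadest in Bry. Vasp, which elongates actin filaments, had 3375, 3842 and 3325 bp.

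Chromatin regulators among these 20 included Ing1, Gse1, Nsd1, Nsd2 and Jade2. Ing1, a reader of methylated histone H3 in the Sin3 deacetylase complex, had Hdac1 peaks of 4416, 3406 and 4058 bp. Gse1, whose product is found with the CoREST deacetylase complex, had 2 domains inside the gene, with peaks of 3980, 6365 and 3373 bp over an internal start site and 4894, 4550 and 3177 bp at lower coordinates. The histone H3 lysine 36 methyltransferases Nsd2 (3105, 3276 and 4045 bp) and Nsd1 (3445, 2983 and 3215 bp) were both among the 20. Jade2, a scaffold of histone acetyltransferase complexes, had 3273, 4325 and 2993 bp. Bahcc1, a BAH domain protein, measured 6359 bp in Bry and 10123 bp in Hd1_loxlox, in both lists the maximum, but 3005 bp in Hd2lox. Among sequence-specific factors, Yy1 had 3291, 3358 and 3144 bp, the zinc finger gene Zfp423 had 3714, 4711 and 4517 bp, and Sall1, a zinc finger factor that recruits NuRD, had 3679, 3354 and 2979 bp. Yy1 was the most even of these and Bahcc1 the most uneven. Ubtf, the upstream factor of RNA polymerase I, had 4260, 4662 and 3065 bp inside the gene, and the remaining members of the 20 were Irf2bp2, Tsc22d2, Nol4l and Kctd1.

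**Figure D2:**
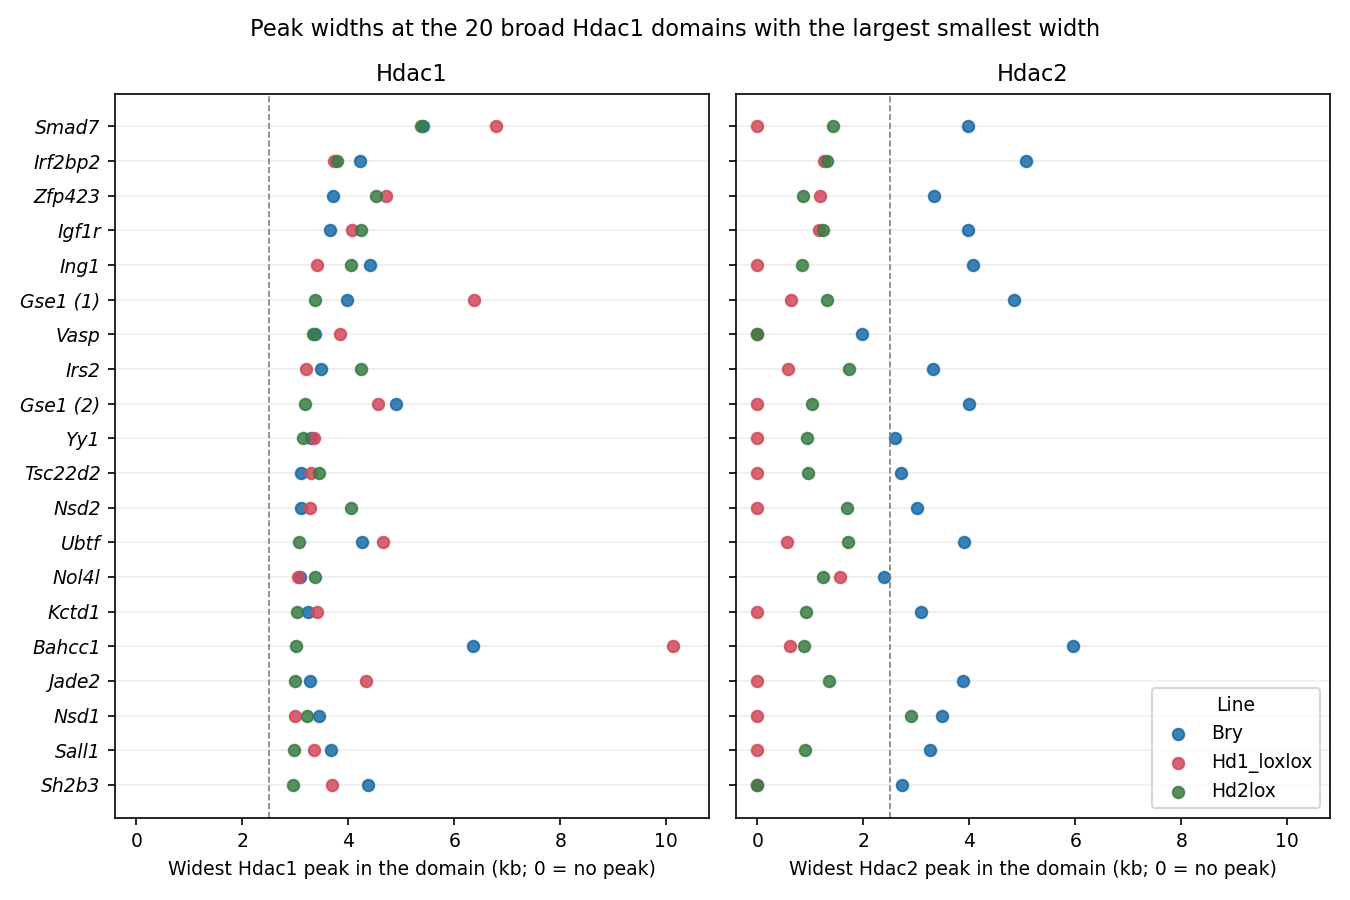
Width in kb of the widest Hdac1 peak (left) and Hdac2 peak (right) in each of 20 domains, with 1 point per line and 0 for no peak; the dashed line marks the 2500 bp used by the rule. All Hdac1 points lie right of the dashed line because the rule chose them, whereas Hdac2 passes it in Bry at most domains, in Hd2lox at Nsd1 (2889 bp) and in Hd1_loxlox at none.

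At the threshold, the domains at Alyref2, an mRNA export factor, and Arhgef25 just entered with peaks of 2501 bp. The regions at Tmem258 and at Asxl1, a Polycomb-related regulator, stayed out with 2499 bp. The widest domains found in a single list were 4115 bp in Bry, over a replication-dependent histone cluster with H2ac7, H2ac8, H2bc7 and H2bc8, and 4 in Hd2lox, namely 4114 bp inside Bcor, a corepressor gene, 3929 bp near Ythdf1, 3888 bp at Foxd3, a forkhead factor of early embryonic cells, and 3738 bp near Rell1. At Foxd3 the only Hdac2 peak was also from Hd2lox (1975 bp). The widest domains away from gene ends, besides those in Gse1, lay inside Pdgfa, Igf2 and Midn. In Igf2, a growth factor gene, the widths were 1145, 4901 and 1489 bp, so Hd1_loxlox alone was broad. In Pdgfa, a platelet-derived growth factor gene, Hd2lox had 4921 bp, Hd1_loxlox 2274 bp and Bry no Hdac1 peak.

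Genes were assigned to a domain when either annotated end lay within 1000 bp of it. This gave 981 of 21887 protein-coding genes, or 4.48%, while 43.2% had an Hdac1 region of any width at an end. Of the genes with any Hdac1 region, 10.4% had a domain. The counts below are read against these shares without a test, because the lists were written with earlier results of these data known, genes can share a domain, and no count is called particular to its list.

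In the TGF-beta lists, leaving BMP aside, most of the genes with a domain were on the list of Smads and Smad regulators. Of 18 Smads and Smad regulators, 7 had a domain and 17 had any Hdac1 region. Besides Smad7 these were Smad3, the signal-carrying Smad of TGF-beta and activin (2591, 1443 and 3179 bp in Bry, Hd1_loxlox and Hd2lox), the Smad corepressors Ski (1546, 2639 and 2639 bp) and Skil (3254, 3598 and 2351 bp), the homeodomain corepressor Tgif1 (4939 and 1879 bp, none in Hd2lox), the receptor-binding Fkbp1a, and Bambi, a decoy receptor. Smad7 was the only one of them that was broad in all 3 lists. Upstream of the Smads, 1 of 15 genes of ligands and latency had a domain, Tgfb1 itself, with 3525, 4031 and 1256 bp. Among 9 TGF-beta and activin receptors 1 had a domain, the activin type II receptor Acvr2b (2734, 2601 and 1688 bp), although 7 had an Hdac1 region. Downstream, 1 of 17 target genes had a domain, Junb. Among genes with any Hdac1 region, the shares for ligands, receptors and targets were 11.1, 14.3 and 12.5%, near the 10.4% of all such genes. The share for Smads and Smad regulators was 41.2%. The BMP branch had 5 of 22, namely the ligands Bmp2 and Bmp6, the inhibitors Smad6 and Nog, and Id4. Smad6, the inhibitory Smad of the BMP branch, had 5456 bp in Bry and 7263 bp in Hd1_loxlox but 1971 bp in Hd2lox.

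Fast-response and feedback genes had the largest share with a domain. Of 20 immediate early genes 11 (55%) had one, and all 20 had an Hdac1 region. They included Jun (4151, 3636 and 1657 bp), Myc (3075 and 5694 bp, none in Hd2lox), Egr2 (3508, 1947 and 2859 bp) and the Krüppel-like factor Klf6 (3925 and 2842 bp, none in Hd2lox). Hd2lox alone had no Hdac1 peak at Fos, Junb, Ier2, Myc and Klf6, but broad peaks in the other lines had chosen these domains. Of all 1026 domains, 183 had no peak in Hd2lox, 198 none in Bry and 140 none in Hd1_loxlox. A difference between lines over the whole list was not tested. Of 16 MAP kinase and cytokine feedback genes 8 had a domain, with Spry2, an inhibitor of receptor tyrosine kinase signalling, broad in all 3 lists (4980, 4885 and 2604 bp) and the phosphatase gene Dusp4 broad in 2 (5489 and 4436 bp, none in Hd2lox). Krüppel-like and Sp factors, which bind GC boxes, had 9 of 26, with Klf13 (2883, 3599 and 2808 bp) and Sp3 (2877, 2668 and 3107 bp) broad in all 3. Cytoskeleton and adhesion genes had 12 of 30, among them Vasp, the cytoplasmic actin Actg1 (1429, 3716 and 3233 bp), Pfn1 and Vim.

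Of 30 haematopoietic transcription factors 9 had one and 20 had an Hdac1 region. Zfpm1, the Gata1 partner known as Fog1, had the widest, with 4655 bp in Bry, 3361 bp in Hd1_loxlox and 1322 bp in Hd2lox. Fli1, an Ets factor of endothelium and blood, had 3900 and 3642 bp and no Hdac1 peak in Hd2lox. Myb had 3693, 3199 and 1273 bp, Hhex 3269, 3860 and 1800 bp, and Meis1 3251 and 3154 bp with none in Hd2lox. None of the 9 was broad in Hd2lox, where 414 of all 1026 domains were, and none was broad in all 3 lists, as 67 of the 981 genes at domains were. Endothelial genes had 8 of 34, among them Kdr, the main VEGF receptor (1446 and 2708 bp, none in Hd2lox), Nrp1 (3614 and 3249 bp, none in Hd2lox), Ephb4 and Sox18, of which only Sox18 was broad in Hd2lox (2943 bp). Notch signalling had 6 of 24, with the target Hes1 (3892, 4823 and 1823 bp) and the receptor Notch1 (2702, 2924 and 2073 bp) broad in Bry and Hd1_loxlox. Maml3 was broad in the same lines, and Jag1 in Hd1_loxlox alone. The other members were broad in Hd2lox, namely Jag2 (1144, 2639 and 2795 bp) and Hes5 (2913 bp, none in Bry or Hd1_loxlox). Blood cell genes had 1 of 26, Cd79a, a share near the background.

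Of 26 histone methyltransferases and demethylases 8 had a domain, and Nsd1, Kdm2a (2901, 2615 and 3762 bp) and Kdm6b, a histone H3 lysine 27 demethylase (3950, 4644 and 2647 bp), were broad in all 3 lists. Of 34 subunits of Hdac1 and Hdac2 complexes 9 had one, with Ing1 broad in all 3 lists and Sin3a, the Sin3 scaffold, broad in 2 (2963 and 2593 bp, none in Hd2lox). Acetyltransferases and acetyl-lysine readers had 5 of 20, of which Brd2, a bromodomain reader, was broad in all 3 (3179, 6595 and 2695 bp). Developmental transcription factors had 25 of 85, with Sall1, Sall3 (2714, 4050 and 3225 bp), Sox11 (3563, 2508 and 3061 bp) and Foxo3 (3583, 5013 and 2897 bp) broad in all 3. Some of these were broad in Hd2lox alone, such as Foxc1, Foxd3, Foxf2, Foxl2 and Foxq1, whereas Foxf1 was broad in Bry too. Polycomb genes had 3 of 30 with 28 carrying an Hdac1 region, so that 10.7% of those with Hdac1 had a domain, near the 10.4% of all such genes. Cell cycle genes had 4 of 34 with 30. Hox genes had 1 of 39 (Hoxd8), and the other histone deacetylases 0 of 14 with 7 carrying an Hdac1 region.

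Several housekeeping groups had a domain at a smaller share of their genes with Hdac1 than the 10.4% of all such genes. Ribosomal protein genes had 3 of 85 (3.53%), although 64 had an Hdac1 region, and proteasome genes had 2 of 48 (4.17%) with 34. Both shares were near the 4.48% of all genes, and among their genes with Hdac1 they were 4.69 and 5.88%. Oxidative phosphorylation genes had 2 of 81 with 44 (4.55% of these), and mitochondrial ribosomal protein genes 0 of 75 with 48. Wnt signalling had 4 of 30 (Fzd2, Fzd8, Lrp5 and Tle3) and receptor tyrosine kinases and growth factor receptors 5 of 30, led by Igf1r. Zinc finger genes named Zfp had 14 of 367, of which Zfp423 alone was broad in all 3. In the groups that follow, Hdac1 regions of any width were at a share of genes below 43.2%. Pluripotency genes had an Hdac1 region at 4 of 15 and a domain at 2, Klf4 and the let-7 antagonist Lin28a (3931 and 4430 bp, none in Hd2lox). Neural and endoderm genes had a domain at 2 of 18, Sox1 and Neurog2, both broad in Hd2lox, and an Hdac1 region at 7. Replication-dependent histone genes had a domain at 7 of 63 and an Hdac1 region at 24, and the 7 lay in 2 domains only, so these members are not independent. Olfactory receptor genes had 1 of 1110, Olfr44 in the Hd2lox list alone. Mesenchymal and muscle genes had a domain at 0 of 20 and an Hdac1 region at 1.

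**Figure D3:**
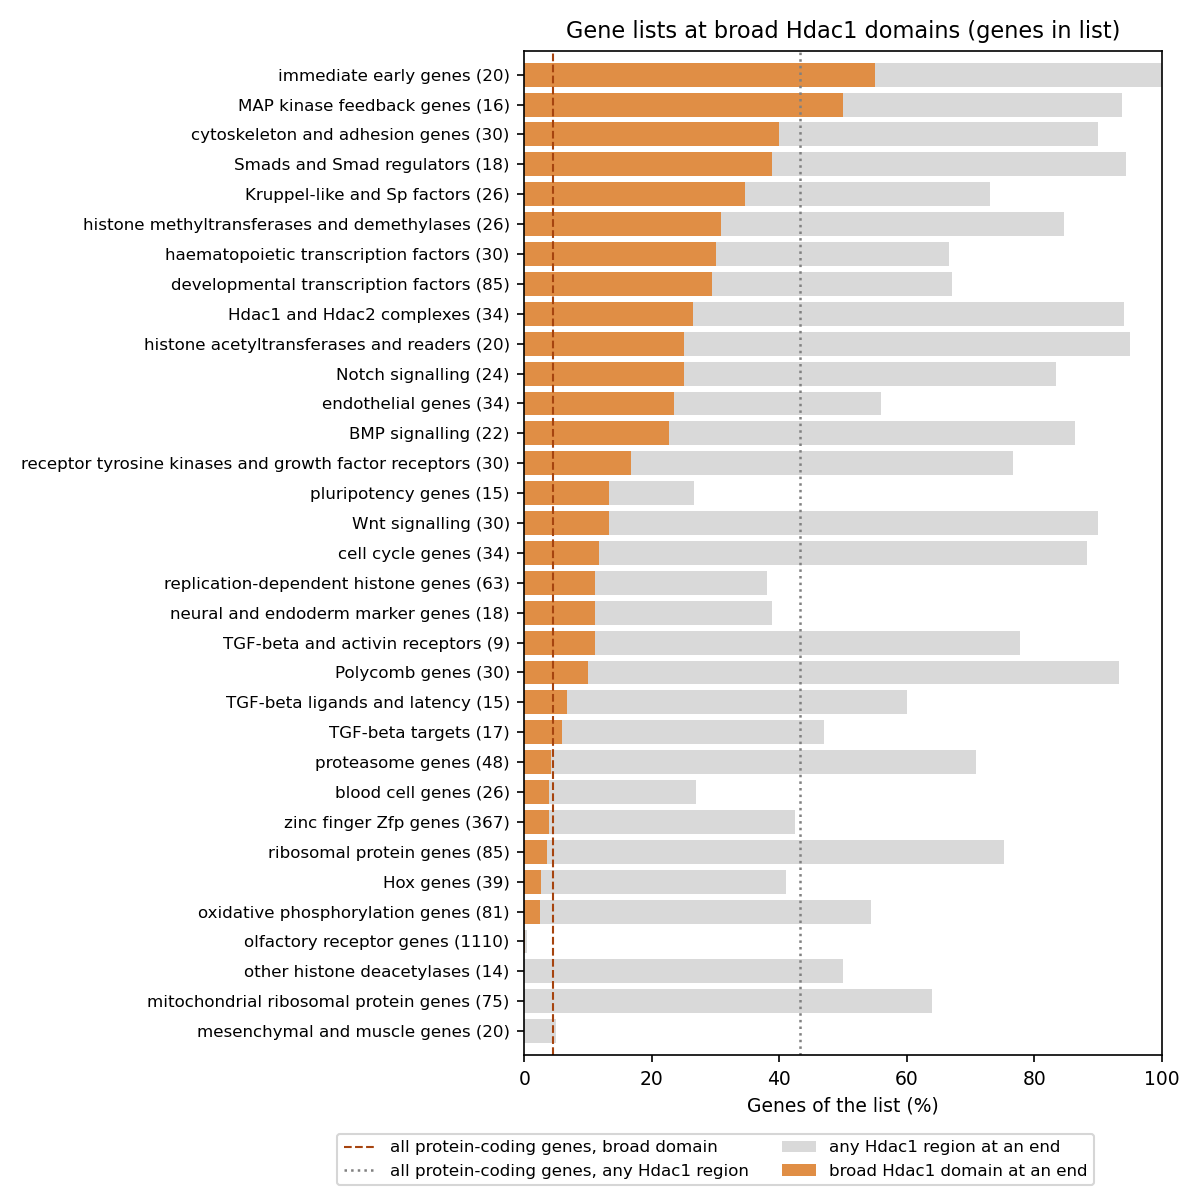
Percent of the genes of each list with a broad Hdac1 domain at an end (orange bars) and with any Hdac1 region there (grey bars), with the number of genes in brackets and vertical lines at 4.48 and 43.2% for all protein-coding genes. Immediate early and feedback genes are at the top; lists such as ribosomal protein genes have long grey bars and short orange ones.

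Most domains held a gene end, usually the start, and reached into the gene. A protein-coding gene end was present in 801 domains (78.1%), 153 lay inside a gene (14.9%) and 72 between genes (7.02%), against 65.2, 20.01 and 14.8% of the other regions. Among regions in all 3 Hdac1 lists the shares at gene ends were 86.2% for domains and 86.7% for others, so the gap in all regions was not seen there. Where the strand was known from the promoter table, 691 of the genes had a domain at the start end and 63 at the stop end only, so 91.6% had it at the start. For other Hdac1 regions the numbers were 6594 and 297 (95.7%), so the share at the start was lower for domains. In 424 domains the widest Hdac1 peak held 1 annotated start site, and that peak extended a median of 1083 bp upstream of the site and 1882 bp downstream. The downstream side was the longer in 75.7% of them and in 75.7% of 4700 other regions of this kind, where the medians were 558 and 880 bp. Ends of lncRNA genes were in 23.2% of domains and 13.2% of other regions, and in 24.8 and 16.8% of those in all 3 lists. Region length was not adjusted for in these shares. Wholly inside a domain lay 34 protein-coding genes, and 46 lay wholly inside other Hdac1 regions. The 34 included Junb, Ier2, Dusp2, Hes5, Gadd45g, Egr4, Foxe1 and Olig1. They were short, as a region can hold only genes shorter than itself, and domains are longer by the rule.

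Hdac2, which the rule did not use, was compared at a single point, the midpoint of the widest Hdac1 peak of each region. A longer region thus had no added chance of a hit, but a narrow Hdac2 peak in a long region can miss that midpoint. In Bry an Hdac2 peak covered this point in 73.0% of domains and 55.2% of other regions. In Hd1_loxlox the shares were 3.31 and 1.90%, and in Hd2lox 28.1 and 22.5%. The share was higher in domains in 3 of 3 lines, but by amounts that differed widely, 17.8, 1.41 and 5.57 percentage points (mean 8.26 ± 8.52, SD, n = 3 lines; exact two-sided sign-flip permutation p = 0.25, the smallest possible, adjusted p = 0.25). With the line Bry left out of both the choice and the comparison the mean was 1.71 points, and without the Hdac2 list of Hd1_loxlox alone it was 11.7 points. The midpoint difference turned when the regions compared were limited to those in all 3 Hdac1 lists. With this limit on the other regions alone, domains minus others came to -15.2 points for Bry, 0.315 for Hd1_loxlox and -17.96 for Hd2lox (mean -10.9 points, exact sign-flip permutation p = 0.5). With the limit on both kinds of region, an alternative chosen after seeing the data, the shares were 87.0 against 88.2% in Bry, 4.19 against 3.0% in Hd1_loxlox and 36.7 against 46.0% in Hd2lox (mean -3.11 ± 5.48 points, exact sign-flip permutation p = 0.5; -5.25 points without the Hdac2 list of Hd1_loxlox). The share of region length under Hdac2 moved the same way, at 58.3 against 47.2% in Bry, 2.39 against 1.41% in Hd1_loxlox and 16.4 against 14.7% in Hd2lox over all regions (mean 4.61 ± 5.62 points, exact sign-flip permutation p = 0.25, adjusted p = 0.25). It was 0.850 points without Bry, 6.43 points without the Hdac2 list of Hd1_loxlox and -1.32 points over regions in all 3 lists (-2.43 points there without the Hdac2 list of Hd1_loxlox). With the limit on the other regions alone it was -6.24 points. Hdac2 anywhere in a region, with no adjustment for length, was higher in domains in each line when both kinds were in all 3 lists. Those shares were 96.1 against 90.6% in Bry, 8.84 against 4.36% in Hd1_loxlox and 59.5 against 50.5% in Hd2lox.

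**Figure D4:**
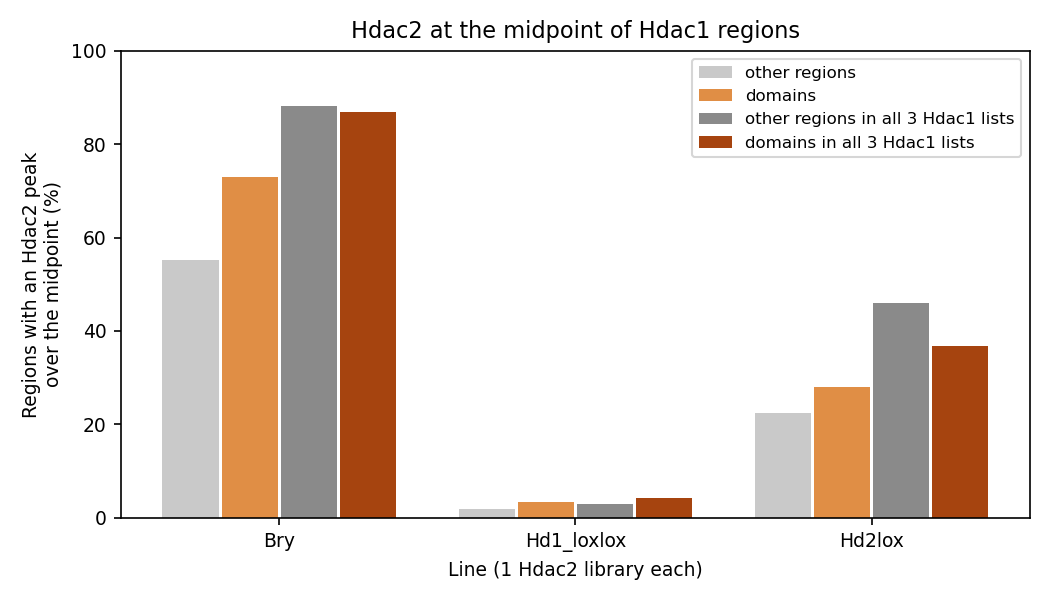
Percent of regions with an Hdac2 peak over the midpoint of the widest Hdac1 peak, by line, with 1 library a line and no error bars. Over all regions the orange domain bar exceeds the light grey bar in each line; over regions in all 3 Hdac1 lists the brown domain bar is the lower in Bry and Hd2lox and the higher in Hd1_loxlox.

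Hdac2 peaks were wider in domains, above all in Bry. Their median width was 2032 bp in domains and 1339 bp in other regions in Bry, 1058 and 985 bp in Hd1_loxlox, and 944 and 892 bp in Hd2lox. The mean difference was 272.67 ± 364 bp (SD, n = 3 lines; exact two-sided sign-flip permutation p = 0.25, adjusted p = 0.25), 97 bp without Bry, 425.5 bp without Hd2lox, 372.5 bp without the Hdac2 list of Hd1_loxlox, and 267 bp among regions in all 3 Hdac1 lists (319 bp there without the Hdac2 list of Hd1_loxlox). The difference was positive in 3 of 3 lines in both sets of regions and smaller than its SD. Of the 378 Hdac2 peaks of Bry that reached 2500 bp, 262 lay in domains and 113 in other Hdac1 regions. Hd2lox had 4 such Hdac2 peaks, all in domains, and Hd1_loxlox had 4, none in any Hdac1 region. A broad Hdac2 peak was thus chiefly a feature of the Bry library.

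Within a line, the presence of Hdac2 in domains followed the presence of Hdac1 more than its width, although by the rule each narrower domain was broad in another line. In Bry, Hdac2 was found in 97.1% of the domains that were broad there, 92.6% of those with a narrower Hdac1 peak and 33.8% of those without one. In Hd2lox the shares were 58.7, 52.0 and 1.09%, and in Hd1_loxlox 9.59, 6.21 and 0.714%. Where Hdac2 was present, its widest peak was wider in broad than in narrower domains. The medians were 2451.5 and 1915 bp in Bry, 1025 and 907 bp in Hd2lox, and 1157 and 958.5 bp in Hd1_loxlox. These are descriptions, since the Hdac1 states chose the domains and both libraries of a line may share an input in peak calling, which the sources used here do not give. Of the 1026 domains, 46 (4.48%) had Hdac2 somewhere in all 3 lines, against 84 of the other regions (0.727%), with no adjustment for region length. Without the Hdac2 list of Hd1_loxlox, 418 domains (40.7%) and 1854 other regions (16.1%) had Hdac2 in both remaining lines. The widest of these 46 included Bahcc1, Zfp423, Igf1r, Irf2bp2, Irs2, Nol4l and Plxnc1, a semaphorin receptor gene. At Igf1r the Hdac2 widths were 3967 bp in Bry, 1169 bp in Hd1_loxlox and 1242 bp in Hd2lox, and at Plxnc1 3369, 1554 and 1540 bp, so Bry was the widest at both. A further 120 domains (11.7%) had no Hdac2 in any line, and 80 of these were found in the Hd2lox Hdac1 list alone. Without the Hdac2 list of Hd1_loxlox the number was 123.

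Domains made up 8.16% of all merged Hdac1 regions and between 5.52 and 10.7% of those on each autosome. The share was highest on chromosome 8, where 95 of 890 regions (10.7%) were domains, followed by chromosomes 18 (10.1%) and 17 (10.02%), and lowest on chromosome 4 (5.52%). Chromosome 11 had the most domains, 119, which were 9.70% of its 1227 regions, while the X chromosome held 5 and the Y chromosome 0. Chromosome 8 carried 7 of the 20 domains named above, those at Irf2bp2, Zfp423, Ing1, Irs2 and Sall1 and both in Gse1. Hd1_loxlox, which had the largest share of broad Hdac1 peaks over all chromosomes, had 9.73% on chromosome 8, against 6.34% in Bry and 7.29% in Hd2lox. Its lead was larger on chromosome 19 (8.92 against 4.93 and 5.13%) and on chromosome 16 (7.98 against 4.94 and 3.40%). It also had 13.6% of its Hdac1 peaks on chromosome 11, where Bry had 10.1% and Hd2lox 7.42%, and 13.3% of its Hdac2 peaks on chromosome 8, where Bry had 8.63% and Hd2lox 5.21%. Its Hdac2 peaks were also frequent on chromosome 11 (15.5 against 9.54% in Bry and 6.47% in Hd2lox) and chromosome 16 (6.47 against 3.15 and 3.09%). On chromosome 8 its share of Hdac1 peaks was 8.79%, near the 8.43% of Bry, with 5.65% in Hd2lox. The part of this in the named domains was not tested. On chromosome 18, the site of Smad7, the broad share was 8, 7.89 and 7.98% in Bry, Hd1_loxlox and Hd2lox, the closest match among the autosomes.

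**Figure D5:**
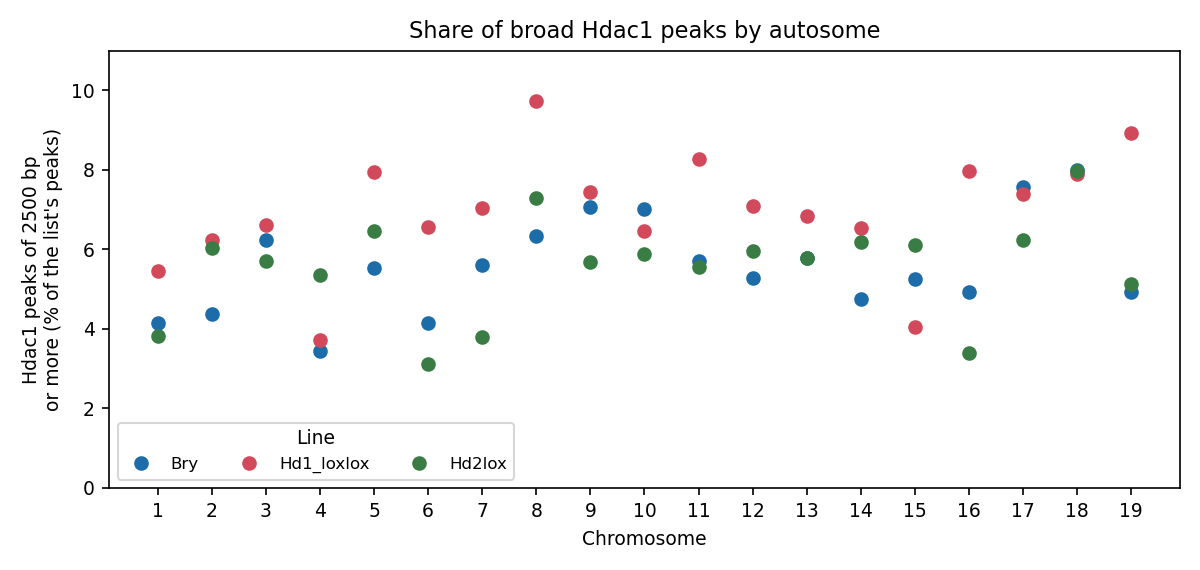
Percent of the Hdac1 peaks on each autosome that reached 2500 bp (y axis, from 0), with 1 point per line. Hd1_loxlox is the highest on chromosome 8 (9.73%), and the 3 lines coincide on chromosome 18.

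Promoters in domains were GC-rich to the same degree as other promoters with Hdac1 in all lines. In windows of 300 bases around a start site (250 upstream, 50 downstream; chromosome 18 not in the table), the 1070 promoters in domains had a median GC content of 67.0% and a median of 27 CpG. The 8980 promoters in other Hdac1 regions had 64.3% and 25, and the 22801 without Hdac1 had 49% and 4. Among regions in all 3 lists, domains and others were both at 69%. Each motif was searched on both strands, and none contains another. GGGCGG was present in 74.2% of domain promoters, 72.8% of those in other Hdac1 regions and 35.7% of all 32851 windows. CCAAT was in 34.3, 35.0 and 37.4% of the same sets, TATAAA in 4.95, 5.01 and 13.6%, CACGTG, an E-box, in 12.2, 10.7 and 7.15%, and TGACTCA, the AP-1 site, in 4.02, 2.66 and 5.20%. CCGGAA, the Ets core, differed most between the first pair, with 19.3% of domain promoters against 30.1% of those in other Hdac1 regions and 14.9% of all windows. It remained lower in domains among regions in all 3 lists, at 20.2 against 27.7%. These shares describe letters in the windows and carry no test, since neighbouring start sites of a gene share sequence.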

How the data were processed

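The authors deposited 1 list of peak positions (chromosome, start, end) for each of the 6 ChIP libraries. Per the submitters' processing notes the tools were bcl2fastq, Bowtie2 2.2.9, SAMtools 1.3.1 and MACS2 2.1.1.20160309 and the build was mm10; which threshold, mode or input was used in calling is not given in the sources used here. Peaks were therefore called per library by the authors, and a wider peak can also come from a deeper library, which positions alone cannot show.

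Widths are end minus start of the deposited positions, and printed coordinates are 1-based. A region counted for a library if any peak of that library touched it. Genes were the 21887 protein-coding genes of a RefSeq table (GRCm38.p6, the same assembly as mm10), and start sites, strands, promoters and microRNAs came from RefSeq sequence tables; 17492 of these genes had a promoter entry. Differences between domains and other regions were taken within each line and tested over the 3 lines by exact two-sided sign-flip permutation, with Benjamini-Hochberg adjustment over 4 tests at 0.05. The pairing by line comes from the labels. Alternatives were the width threshold, the overlap, the gene window, each line left out, the test without pairing and the set of regions compared. Python 3.11.15 with pandas 2.3.3 and numpy 2.4.6 was used, and the scripts were checked on simulated regions.

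The members and gene lists were chosen with earlier results of these data known. Named domains were the 20 with the largest smallest width among those broad in all 3 lists, list members broad in all 3 lists or else the widest, the widest with Hdac2 in all lines, those in a single list, those away from gene ends, and those next to the threshold. Other list members named in the report were chosen after their values were seen.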

Additional observations from a re-analysis of the deposited data

How the results depend on the processing

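The numbers of domains and of genes at them followed the width threshold: 2691 domains and 2505 genes at 2000 bp, 385 and 373 at 3000 bp, and 78 and 77 at 4000 bp, against 1026 and 981 at 2500 bp. Requiring 100 bp of overlap for merging left 1026 domains. Leaving out a line gave 734 to 841 domains and 692 to 776 genes, and gene windows of 0 and 2500 bp gave 897 and 1062 genes. At 2000, 3000 and 4000 bp the mean excess of Hdac2 over the midpoint was 8.73, 8.19 and 10.5 points, and the difference in width in the line left out was 448, 1003.5 and 1622 bp. The Hdac2 width difference was 457 bp at 4000 bp, where Hd1_loxlox went the other way (-149 bp).

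The excess of Hdac2 over the midpoint was 5.61 points at gene ends, and it reversed to -10.9 points when the other regions were limited to those in all 3 Hdac1 lists and to -3.11 points when both kinds were. The share of length under Hdac2 reversed to -6.24 and -1.32 points. The cause was not tested. Leaving out a line gave 1.71 to 9.004 points for the midpoint and 0.850 to 4.98 points for length, the lowest in both without Bry. Alternatives added after seeing the data left out the Hdac2 list of Hd1_loxlox (11.7 points for the midpoint) or regions found only in the Hdac1 list of Hd2lox (7.46 points). With both kinds of region in all 3 Hdac1 lists and without that Hdac2 list, the midpoint and length differences were -5.25 and -2.43 points.

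Without the replicate block, that is without pairing by line, the differences stayed at 8.26 points, 4.61 points, 272.67 bp and 644.5 bp by construction, with exact permutation p of 0.7, 0.7, 0.6 and 0.1 (the last is the smallest that 3 against 3 allows). No test passed 0.05 with or without it. The number of lines and the missing read depth limit all comparisons, and regions without a peak may reflect low coverage.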
